A study of Homo sapiens with 4 samples.

Results

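Of the 14149 peaks in the HuR RIP-seq list, 7401 (52.3%, Wilson 95% interval 51.5 to 53.1) were annotated to an internal intron, that is, an intron that is neither the first nor the last of its transcript. They were chosen by the annotation alone, as peaks whose centre was placed in intron k of n with k above 1 and below n, and no score entered the choice. They made up 84.5% of the 8756 intronic peaks, beside 909 in first introns and 446 in last introns. RNA was immunoprecipitated from lysates of MDA-MB-231, a line from a human triple-negative breast tumour grown in DMEM with serum and antibiotics, with either a mouse anti-HuR antibody (2 samples) or mouse IgG as the control (2 samples). All 4 libraries were made from the immunoprecipitated RNA of this 1 line with a TruSeq kit without poly(A) selection. Whether the peaks came from unspliced or intronic RNA was not tested. The comparison of HuR with IgG addressed which transcripts HuR binds, and the deposited outcome was a single list of peaks. It has no value for a single sample, so neither the difference between HuR and IgG at a peak nor the spread between replicates was measured here, and the depth of each library is unknown. The intervals below cover counting error over peaks, exons or genes only. Peaks that adjoin the same exon or lie in the same gene share reads and are not replicates.

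HuR, encoded by ELAVL1, is an RNA-binding protein of the ELAV family that recognises U-rich and AU-rich stretches of RNA. It resides mainly in the nucleus, where it meets pre-mRNA, and it shuttles to the cytoplasm, where it is best known for stabilising mRNAs through elements in their 3′-UTRs. An internal intron is bounded by exons on both sides, with a 5′ splice site, the donor, at its start and a 3′ splice site, the acceptor, preceded by a pyrimidine-rich tract at its end.

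The sequences that follow show what an exon between internal intron peaks looks like. They are, with 1 exon per gene, the highest-scoring exons with a peak on both sides that could be shown with their flanks within the printed length, and the best such exons of ELAVL1 and MSI2, followed by the exon beside the only peak of XIAP. Each was read from the hg38 reference on the strand of the gene, 5′ to 3′, with the exon in capitals and 30 bases of the intron on either side in lower case. The exons were wholly coding in the canonical GENCODE 44 transcript, from which the exon numbers were taken.
CANX exon 7, chr5:179709843-179710095, + strand: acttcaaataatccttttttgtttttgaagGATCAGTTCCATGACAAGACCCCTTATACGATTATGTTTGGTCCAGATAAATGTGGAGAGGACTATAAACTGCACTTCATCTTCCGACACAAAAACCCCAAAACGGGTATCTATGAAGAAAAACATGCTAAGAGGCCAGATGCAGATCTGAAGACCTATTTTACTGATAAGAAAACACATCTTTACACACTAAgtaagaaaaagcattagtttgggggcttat
ITGB1 exon 12, chr10:32911856-32912154, − strand: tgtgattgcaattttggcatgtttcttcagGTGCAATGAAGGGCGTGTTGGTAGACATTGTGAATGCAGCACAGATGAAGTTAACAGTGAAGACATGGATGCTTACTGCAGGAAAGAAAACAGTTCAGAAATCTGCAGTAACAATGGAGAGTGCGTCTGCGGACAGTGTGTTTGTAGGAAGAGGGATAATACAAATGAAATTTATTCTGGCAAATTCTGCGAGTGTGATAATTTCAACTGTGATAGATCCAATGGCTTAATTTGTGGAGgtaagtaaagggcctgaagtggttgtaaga
CAPZA1 exon 5, chr1:112654435-112654701, + strand: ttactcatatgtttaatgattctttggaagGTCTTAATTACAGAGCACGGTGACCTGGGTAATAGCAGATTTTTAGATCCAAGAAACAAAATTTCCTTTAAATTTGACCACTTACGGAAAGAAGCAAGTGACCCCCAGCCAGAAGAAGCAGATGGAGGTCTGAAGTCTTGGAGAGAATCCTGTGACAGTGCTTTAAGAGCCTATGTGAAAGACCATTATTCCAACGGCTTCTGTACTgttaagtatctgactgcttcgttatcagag
G3BP1 exon 7, chr5:151797197-151797458, + strand: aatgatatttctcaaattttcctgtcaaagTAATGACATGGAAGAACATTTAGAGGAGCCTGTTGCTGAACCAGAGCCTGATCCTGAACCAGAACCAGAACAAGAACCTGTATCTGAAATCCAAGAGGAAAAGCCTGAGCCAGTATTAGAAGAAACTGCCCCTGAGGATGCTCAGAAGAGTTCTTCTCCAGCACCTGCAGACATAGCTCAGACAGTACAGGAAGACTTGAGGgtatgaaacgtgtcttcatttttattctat
ELAVL1 exon 4, chr19:7973695-7973908, − strand: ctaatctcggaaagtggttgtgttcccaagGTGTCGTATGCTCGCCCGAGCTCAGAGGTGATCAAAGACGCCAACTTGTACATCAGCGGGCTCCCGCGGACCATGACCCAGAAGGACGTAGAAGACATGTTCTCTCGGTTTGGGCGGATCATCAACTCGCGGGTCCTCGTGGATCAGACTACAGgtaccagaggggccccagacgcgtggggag
ELAVL1 exon 3, chr19:7981053-7981216, − strand: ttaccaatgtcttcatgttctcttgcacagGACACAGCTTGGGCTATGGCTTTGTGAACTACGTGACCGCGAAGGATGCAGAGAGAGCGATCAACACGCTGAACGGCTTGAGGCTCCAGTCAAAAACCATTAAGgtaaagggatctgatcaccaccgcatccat
MSI2 exon 6, chr17:57401349-57401501, + strand: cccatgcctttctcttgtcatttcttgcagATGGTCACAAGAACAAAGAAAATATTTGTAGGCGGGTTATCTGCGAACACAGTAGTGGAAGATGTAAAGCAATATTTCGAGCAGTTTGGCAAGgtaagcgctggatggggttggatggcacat
MSI2 exon 12, chr17:57674942-57675156, + strand: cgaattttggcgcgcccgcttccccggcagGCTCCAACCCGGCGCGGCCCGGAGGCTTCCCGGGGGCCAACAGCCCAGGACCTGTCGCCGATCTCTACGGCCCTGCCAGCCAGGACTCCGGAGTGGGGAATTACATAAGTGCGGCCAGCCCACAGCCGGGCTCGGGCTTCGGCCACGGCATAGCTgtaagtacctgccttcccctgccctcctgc
XIAP exon 4, chrX:123891208-123891346, + strand: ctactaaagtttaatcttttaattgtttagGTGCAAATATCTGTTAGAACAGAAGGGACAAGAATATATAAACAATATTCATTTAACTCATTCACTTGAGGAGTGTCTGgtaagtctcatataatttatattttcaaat

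The intronic peaks were exon-edge peaks. All peaks of the list have the same length, and 7288 could be placed in an intron of the canonical transcript, in 6004 different introns with a median length of 2921 bp. Peak centres lay a median of 102 bp from an exon, with quartiles of 64 and 132 bp. The centre lay within 1 peak length of an exon in 98.1% (97.8 to 98.4) of them, whereas 9.35% of the bases of the same introns were that close. The peak interval itself reached into the exon in 86.7%, by a median of 76 bp. The donor end of the intron held 4030 peaks, or 55.3%, and the acceptor end 3258. Of the donor-end peaks, 98.8% carried the strand of the gene, whereas 1.10% of the acceptor-end peaks did. At both ends the peak therefore pointed away from the exon, with the exon behind it in 98.8% of cases. Scores were close at the ends, with a median of 29.1 (27.7 to 30.3) at the donor and 27.2 (26.2 to 28.4) at the acceptor. The score is HOMER's own value for a peak, on a scale that is not stated.

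**Figure D1:**
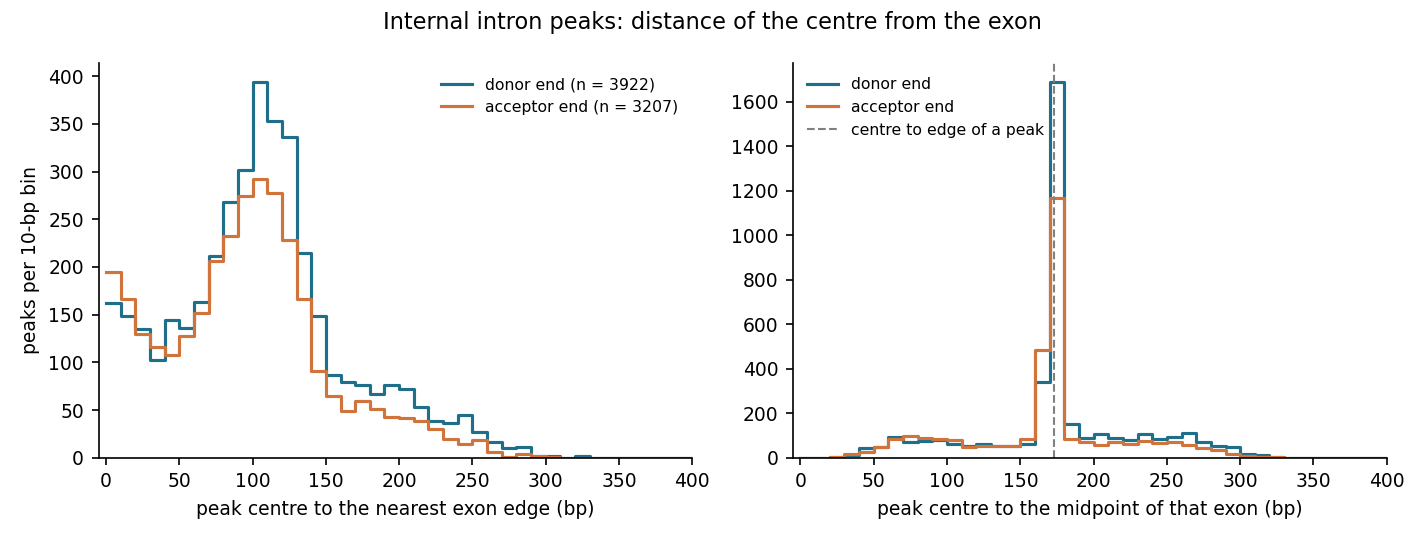
Number of internal intron peaks per 10-bp bin by the distance of the peak centre from the nearest exon edge (left) and from the midpoint of that exon (right), at the donor and acceptor ends of introns. The edge distances are broad with a median near 102 bp, whereas the midpoint distances gather in a narrow column at the dashed line, which marks the distance from a peak's centre to its own edge, with a low shoulder on either side.

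By the median, the centre kept its distance from the middle of the exon rather than from its edge. Among the 7129 peaks within 1 peak length of an exon that lay behind them, the centre was a median of 172.5 bp from the exon midpoint, with quartiles of 165 and 182 bp. This is the distance from the centre of a peak to its own edge, so the rear edge of such a peak fell on the exon's middle. The rear edge was inside the exon for 5320 peaks, or 74.6%, at a median relative position of 0.496 on a scale from 0 at its first base to 1 at its last. Between exons of at most 60 bp and exons over 300 bp, the median edge distance ran from 143 to 9 bp, while the median midpoint distance stayed between 170.75 and 172.5 bp in the 6 classes up to 300 bp and was no more than 1 bp beyond that in the longest. Not every peak followed this placement. The rear edge was within 25 bp of the exon's middle for 59.3% of the peaks. For 1426 peaks the centre was closer to the exon than that, and for 1472 it was farther away. The peaks off this position had higher median scores, 35.7 (33.3 to 37.9) on the near side and 31.6 (29.9 to 33.8) on the far side, than the 25.7 (25 to 26.4) of those on it, and they adjoined shorter exons, with medians of 115 and 127 bp against 144 bp.

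Of the 5930 exons beside an internal intron peak, 1199 (20.2%) had one on both sides, 2723 on the donor side alone and 2008 on the acceptor side alone. In all, 96.2% of these exons were wholly coding. The 2 peaks of a pair were much alike. Their log2 scores had a Pearson's r of 0.962 and their scores a Spearman's rho of 0.949 across the 1199 pairs, which share the exon, the gene and its RNA level. In 95.7% of the pairs the scores were within 2-fold of each other. The donor-side peak was the higher one in 855 pairs and the acceptor-side peak in 335, with a median log2 difference of 0.22 toward the donor and quartiles of −0.05 and 0.49. Their centres were a median of 345 bp apart. The focus ratio, a fraction that HOMER gives for how a peak's tags are arranged around its centre, was complementary within pairs. The sum over a pair had a median of 0.998, with quartiles of 0.994 and 1, and lay within 0.05 of 1 in 97.7% of pairs. The median focus ratio was 0.535 on the donor side and 0.463 on the acceptor side. The focus ratio and the score were not independent. At ADAM10 exon 9, scores of 313 and 139 went with ratios of 0.692 and 0.308, close to each peak's share of the 2 scores. At CANX exon 7, 2391.1 and 2473.3 went with 0.492 and 0.508. The focus ratios are therefore not read as a property of the pairs beyond their scores. How closely all pairs follow this was not computed. Peaks without an internal intron peak across the exon were lower, with a median score of 24.2 against 38.2 for the lower and 50.7 for the higher member of a pair. A peak across the exon in a first or last intron, or centred in an exon, was not counted as a partner. A pair also needs 2 peaks high enough to be listed. How much of the difference comes from these limits was not tested.

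**Figure D2:**
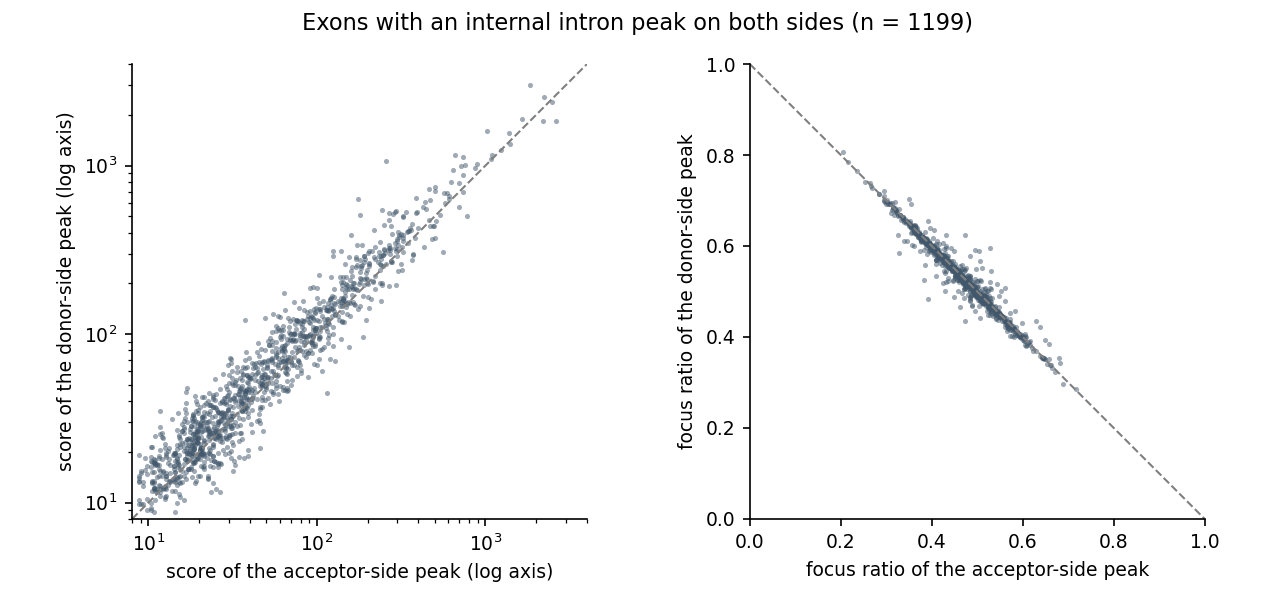
Each point is 1 of the 1199 exons with an internal intron peak on both sides. Left, donor-side against acceptor-side peak score on log axes with the line of equal scores, and right, the same for the focus ratio with the line on which a pair sums to 1. The score points follow the line of equality over the whole range and the focus points fall on the descending line. The panels are not independent, as the focus ratio can restate how the scores of a pair are split.

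The best pair of each of 5 genes, ranked by the lower of its scores, shows the upper end. CANX, which encodes the endoplasmic reticulum chaperone calnexin, had the best pair, at exon 7 of 15, a 193-bp exon with a score of 2391.1 on the donor side and 2473.3 on the acceptor side, and centres 290 bp apart. ITGB1, an integrin beta subunit for adhesion to the extracellular matrix, followed with exon 12 of 16, with 1875.7 at the donor and 1654.8 at the acceptor. CAPZA1, a subunit of the actin filament capping protein, had 1161.9 and 1095.3 at exon 5 of 10. HNRNPU, a nuclear RNA-binding protein of the hnRNP group, had 1087.5 and 1077 at exon 11 of 14, whose 255 bp were too long to show with its flanks. G3BP1, the core protein of stress granules, had 1028 and 887.6 at exon 7 of 12. The donor side was the higher in 4 of these 5 exons, and the CANX exon was the exception.

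Most exons of a host gene had no such peak. In 1950 host genes, 25361 exons had internal introns on both sides, and 5283 of them (20.8%, 20.3 to 21.3) carried a peak. The share rose with exon length from 12.0% (10.6 to 13.6) of exons of at most 60 bp to 24.8% (23.1 to 26.6) of those over 200 and up to 300 bp. It was 8.84% for exons over 300 bp, where a peak that starts at the middle of the exon can have its centre in the exon and then falls outside the rule. Long neighbouring introns went with more peaks. Where the shorter of the adjoining introns was at most 200 bp, 9.87% (8.88 to 10.96) of exons had a peak, against 29.9% (28.4 to 31.4) at over 3000 and up to 10000 bp. In the shortest introns a peak that starts at the middle of 1 exon can have its centre in the next exon. It then falls outside the rule, so the rule limits the share there. The share was also low, 10.97% (9.99 to 12.04), at 201 to 500 bp. How much of the low shares comes from the rule was not tested. Position along the gene changed the share little. In the 1424 genes with at least 10 exons it was 19.8% in the first of 5 equal parts of the exon order, 20.7% in the middle part and 17.8% in the last.

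**Figure D3:**
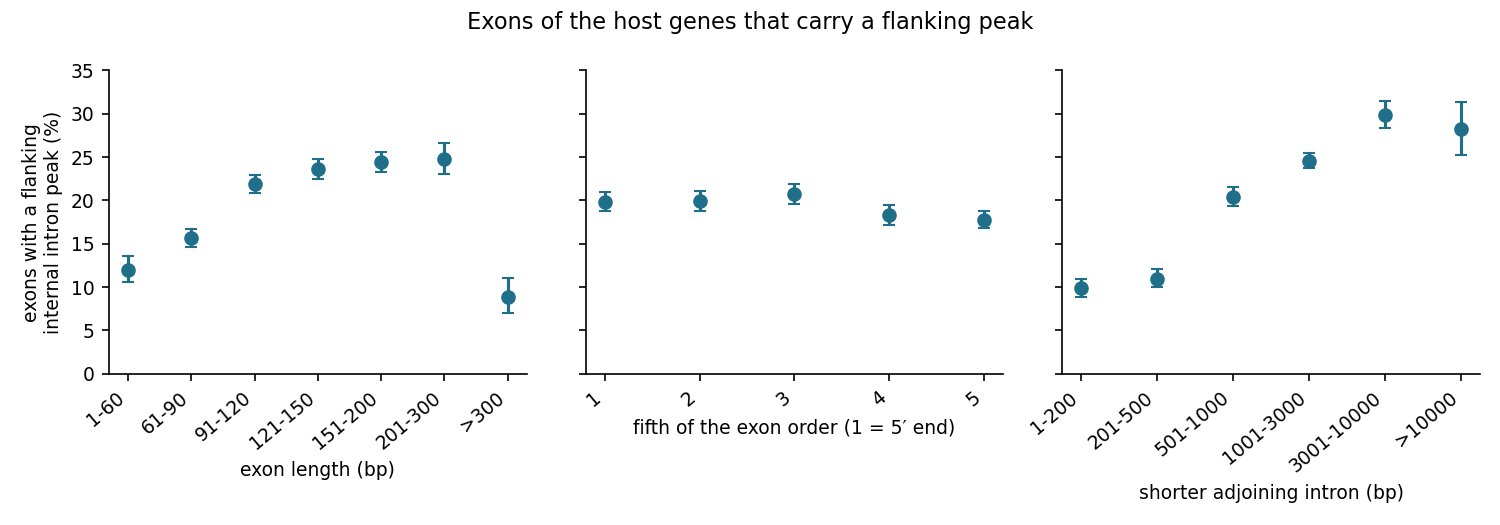
Percentage of host gene exons with an internal intron peak on at least 1 side, by exon length, by 5 parts of the exon order and by the length of the shorter adjoining intron, with Wilson 95% intervals. The share runs from 12.0% to 24.8% over the exon lengths up to 300 bp and falls to 8.84% above, is nearly level along the gene, and runs from 9.87% to 29.9% with intron length before levelling.

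Within a gene, peaks beside longer exons scored higher. In the 144 genes with at least 10 placed peaks, Spearman's rho between the score and the length of the adjoining exon had a median of 0.72 with quartiles of 0.58 and 0.82, and it was above 0 in 142 of them. The exceptions were AXL, at −0.30, and EIF2S3, a subunit of a translation initiation factor, at −0.08. These are correlations across peaks of 1 gene, some of which share an exon. FNDC3B, a fibronectin type III domain protein, had a rho of 0.92 over 33 peaks. Its donor-side score was 236.4 at exon 22, which is 281 bp long, and 170.8 at exon 6 of 282 bp. It was 40.1 at exon 3 of 76 bp and 54.1 at exon 7 of 59 bp. The long exons of FNDC3B thus had several times the score of the short ones. SEC23A, a component of the COPII vesicle coat, had a rho of 0.83 over 20 peaks, with 551.3 on the donor side of its 237-bp exon 5 and 111.8 on the acceptor side of its 78-bp exon 15. Over all genes, the median score was 19.6 (18.1 to 21.5) beside exons of at most 60 bp and 38.2 (31.6 to 47.7) beside exons over 300 bp.

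**Figure D4:**
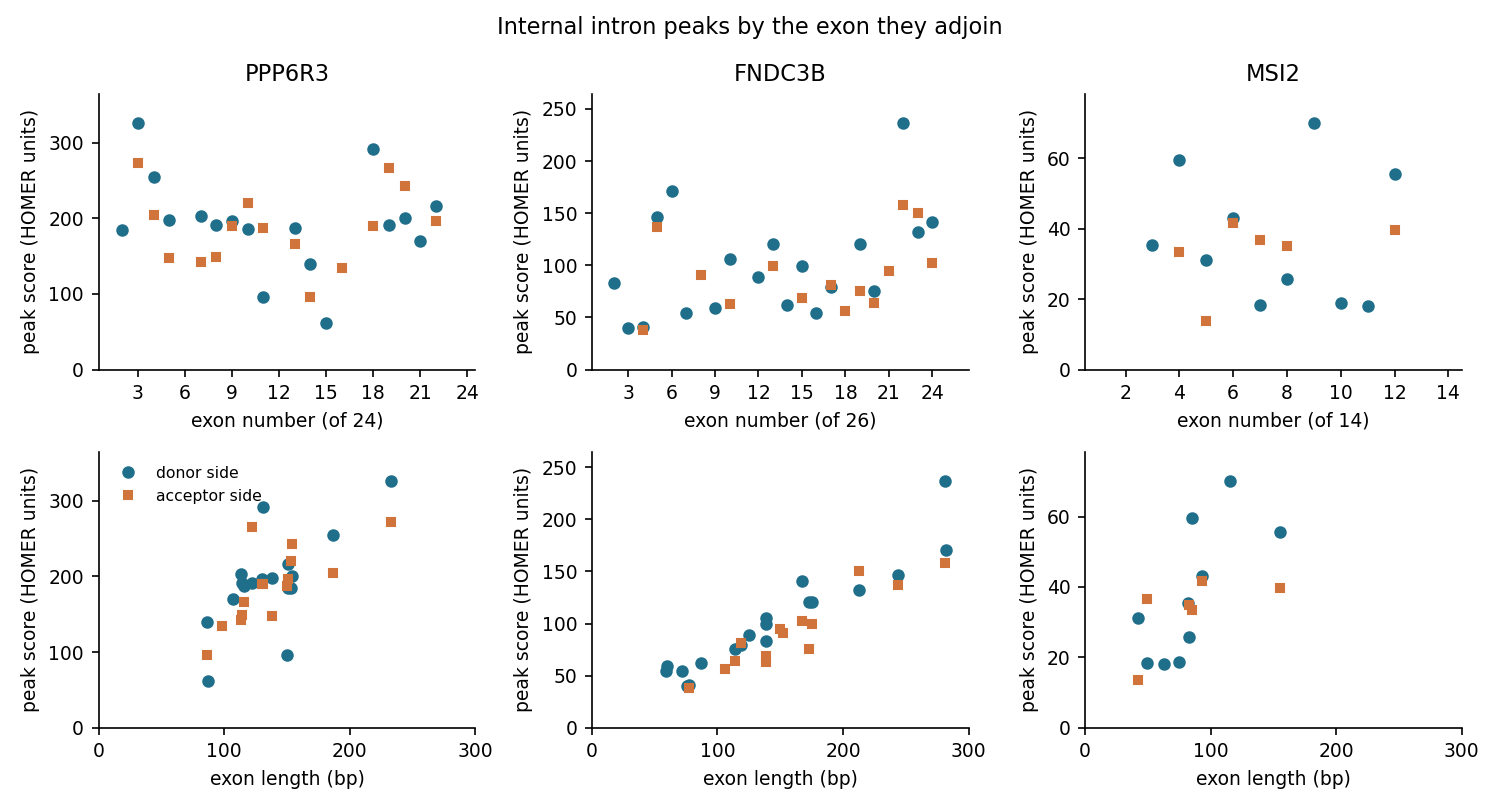
Scores of internal intron peaks in PPP6R3, FNDC3B and MSI2 against the number (top) and the length in bp (bottom) of the exon that each adjoins, with donor-side and acceptor-side peaks as separate symbols and score axes from 0. By exon number the scores go up and down along the gene, and by exon length the same points rise, with Spearman's rho of 0.65, 0.92 and 0.78.

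Most of the spread in score lay between genes. Among the 6670 peaks of the 1333 genes that held more than 1, 88.7% of the variance of the log2 score lay between genes, where scores unrelated to genes would give 19.97%. The highest score in a gene was a median of 1.93 times the lowest. Along the exon order of 447 genes with at least 10 exons and 5 peaks, the median log2 score relative to the gene's own median was −0.06 (−0.11 to 0) in the first of 5 parts and 0.03 (0 to 0.09) in the last.

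Internal intron peaks were among the lower peaks of the list. Their median score was 27.9 (27.2 to 28.9), with quartiles of 16.4 and 60.7 and a range from 8.56 to 3132.8. First introns had a median of 31.6 (28.9 to 35.5), last introns 34.4 (30.1 to 39.2), exons 44 (41.4 to 47.7) and 3′-UTRs 65.5 (59 to 71.2), whereas intergenic peaks had 17.1 (15.7 to 18.8). In all, 43.0% of internal intron peaks reached the median of the whole list, 34, and 31 were among its 100 highest. The order within genes was different for first introns. In the 510 genes with both kinds, the internal peaks had the higher median in 328 genes and the lower in 181, with a median log2 difference of 0.26 (0.17 to 0.31) toward the internal introns. They were lower than last introns by a median log2 difference of −0.30 (−0.38 to −0.22) over 283 genes and lower than exons by −0.79 (−0.85 to −0.73) over 712. Against the 3′-UTR of the same gene the difference was −1.03 (−1.07 to −0.97), and the intronic peaks were the lower in 692 of 741 genes. These differences set peaks of 1 list side by side and have no replicate check.

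**Figure D5:**
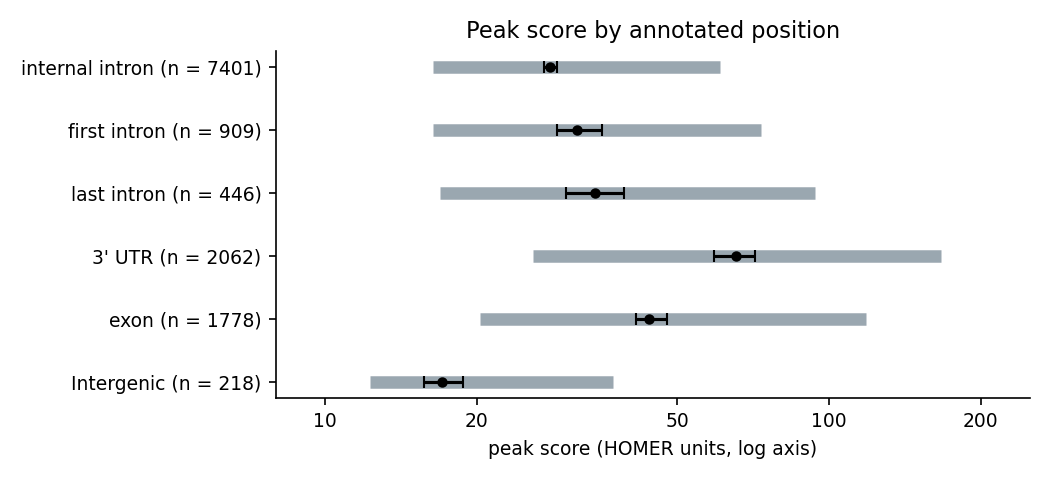
Peak score by annotated position, on a log axis, with the median as a point, its 95% interval as whiskers and the quartiles as a grey bar, and with the number of peaks beside each name. Internal introns have the lowest median, 27.9, of the positions within genes that are drawn, and 3′-UTRs the highest, 65.5.

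The 7401 peaks named 2366 RefSeq transcripts, and 7352 of them were matched to 2015 host genes. Of the 16027 protein-coding genes with at least 3 introns, the fewest that leave an internal one, 1969 held a member, a background share of 12.3%. The share rose with the number of introns, from 5.17% of genes with 3 to 5 introns through 10.6% at 6 to 10 and 17.0% at 11 to 20 to 22.5% at 21 to 40. Host genes had a median of 13 introns and the remaining genes 8. A host gene held a median of 2 internal intron peaks, 682 held 1 and 146 held at least 10, and 33.9% of the peaks lay in the 201 genes with most. For 666 host genes these were the only peaks in the list, while 36.8% also had a 3′-UTR peak and 35.3% an exon peak. In the GENCODE annotation 1973 of the hosts were protein-coding and 20 were long non-coding RNA genes.

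The 10 host genes with the highest single peak were CANX, TMED2, UBE2N, EIF5A, ITGB1, AXL, ANKRD1, CNN3, SET and CAPZA1. CANX had 14 internal intron peaks beside 8 exons, from 1381.4 at the acceptor side of exon 9 to 3132.8 at the donor side of exon 2, and even the lowest was above the best peak of CNN3, SET and CAPZA1. AXL, a receptor tyrosine kinase, had 14 with scores of 656.3 to 1606.8 and a median of 986, and its best lay in the window chr19:41248658-41249004 at the end of a 78-bp exon. ITGB1 had 11 with scores of 619.4 to 1875.7 and no 3′-UTR or exon peak. These genes carried high scores on many exons. The other 7 genes had 1 or 2 internal intron peaks each. TMED2, a p24 cargo receptor of the early secretory pathway, had 2410.2 and 986. UBE2N, a ubiquitin-conjugating enzyme, had 1 at 2077.4 and EIF5A, the hypusine-bearing translation factor, 1 at 1918.3. ANKRD1, an ankyrin repeat protein known as a YAP target, had 1 at 1538.8. CNN3, a calponin that binds actin, had 1323.2 and 1275, and SET, a histone chaperone and phosphatase inhibitor, had 1310 and 989.1. In CANX the best 3′-UTR peak, at 3376.1, was just above its best intronic one, in AXL the best 3′-UTR peak was at 2682.6, and in CNN3 at 2550.2. How reads shared with near-identical copies elsewhere, such as processed pseudogenes, were assigned is not given in the sources used here.

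A different set of genes had the most peaks. PPP6R3, a regulatory subunit of a serine/threonine phosphatase, and FNDC3B had 33 each. PPP6R3 had peaks beside 18 of its 24 exons, 14 of them on both sides, with scores of 40.4 to 325.7 and a median of 189.9. FNDC3B had peaks beside 22 of 26 exons with scores of 38.2 to 236.4. The next were PPFIBP1, a liprin-binding protein, with 25, PPP1R12A, the targeting subunit of myosin phosphatase, with 24, and CMIP with 24. FOXP1, a forkhead transcription factor, had 23, STRN3, a striatin scaffold protein, 22, and CAMK2D, a calmodulin-dependent kinase subunit, 22. SIPA1L3 and DIP2B had 21 each. Their scores covered a wide range. The medians ran from 13 in DIP2B and 16.9 in SIPA1L3 to 129.7 in PPP1R12A and 189.9 in PPP6R3, and no gene was in both groups of 10.

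Of 14 genes that the study discusses, 11 have the 3 introns needed, with a median of 13 introns, and 3 held internal intron peaks. The background is 17.0% for genes with 11 to 20 introns and 12.3% over all genes with at least 3. These genes were picked by the study and are a description, not a sample. ELAVL1, the gene of HuR itself, had 5 on chromosome 19, beside exons 2, 3 and 4 of 6. The highest, 472.8, lay on the donor side of exon 4 in chr19:7973394-7973740, and its partner on the acceptor side had 267.7. The pair at exon 3 had 200.4 and 166.2, and the donor-side peak at exon 2 had 375.9. The acceptor side of exon 2 is the first intron, which the rule leaves out. The focus ratios of these pairs were 0.638 with 0.362 and 0.546 with 0.47, close to each peak's share of the scores of its pair. All 5 scores of ELAVL1 were above the upper quartile of the internal intron peaks. MSI2, an RNA-binding protein of the Musashi family, had 16 peaks beside 10 exons of the 14, spread over introns as long as 139186 bp. Its scores ran from 13.7 on the acceptor side of the 42-bp exon 5 to 70 on the donor side of the 115-bp exon 9. At exon 6, printed above, the sides had 43.1 and 41.6, and at exon 12 they had 55.6 and 39.6. XIAP, an inhibitor of caspases, had 1 peak, with a score of 20.3, on the donor side of exon 4.

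Other gene groups held such peaks in different shares of their genes. They were chosen by function but with earlier results of these data known, so their shares are a description only. The background is 22.5% for genes of 21 to 40 introns, which holds the median intron number of each of the 5 groups given first. This and the other background shares count all annotated protein-coding genes of a class, whether or not they were expressed in these cells. Of 36 ubiquitin ligase and deubiquitinase genes, with a median of 24 introns, 28 (77.8%) were hosts, with 109 peaks. Their best peaks were modest, with a median of 29.2, and the highest were in CUL4B and CUL5, scaffolds of cullin ligases, at 136.3 and 86.9. Of 38 chromatin regulators, with a median of 27.5 introns, 25 (65.8%) were hosts, led by SMARCA5, a nucleosome remodelling ATPase, at 103.5. Nuclear transport genes had 17 of 40 (42.5%), with KPNB1, an importin beta, at 649 and XPO1, the main nuclear export receptor, at 230.3. Membrane trafficking genes had 13 of 34 (38.2%), with SEC23A at 551.3 and DNM1L, the mitochondrial fission dynamin, at 152.7, where its only peak lay 3600 bp from any exon of the gene and on a processed pseudogene. Among 35 cytoskeleton and adhesion genes 10 (28.6%) were hosts, with ITGB1 first. Genes with any peak in the list numbered 28 in the ubiquitin group, 30 among the chromatin regulators and 18 among the nuclear transport genes. They numbered 13 among the trafficking genes and 12 among the cytoskeleton and adhesion genes. Most genes of these groups with any peak were thus hosts, and no background share for having any peak was computed.

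Among splicing and translation factors the share of hosts was near the 17.0% background of genes with 11 to 20 introns. Of 35 splicing factors, 34 of which have the 3 introns needed, 5 (14.3%) were hosts. The median of their best scores was 529.3, with HNRNPU at 1087.5 and HNRNPL at 940.2. Of 32 translation factors 6 (18.8%) were hosts, with a median best score of 174.4, led by EIF4E, the cap-binding protein, at 656.3 and EIF2S3 at 559.7. The AU-rich element binding proteins, with a median of 9 introns and a background of 10.6%, had 5 of 20. Only 17 of those 20 have the 3 introns needed. The RNA helicases, with a median of 16 introns and a background of 17.0%, had 4 of 30 (13.3%). The median best score was 177.2 in the element-binding group and 26.5 in the helicases. Among the helicases DDX6, a factor of mRNA decay and storage, was highest at 125, before DHX33 at 33.3. After ELAVL1 the best of the element-binding proteins was PTBP3, a pyrimidine tract binding protein, with 13 peaks and a best score of 257.7. Of the 32 ribosomal protein genes, which have a median of 5 introns, 0 were hosts and 0 had any peak in the list. The background for genes of 3 to 5 introns is 5.17%, so few ribosomal hosts would be counted at that share. The groups were not tested.

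A small remainder lay deep in introns. More than 1000 bp from any annotated exon of the host gene were 50 peaks in 35 genes, the farthest at 24328 bp. Their median score was 16.4, with quartiles of 11.5 and 26.3, and 58.0% (44.2 to 70.6) had the nearest exon behind them, against 98.8% of all placed peaks. In 42.0% the peak was annotated to a repeat, whereas 12.3% of all internal intron peaks were. Of the 50, 11 overlapped an exon of another gene, 5 of them a processed pseudogene. The best were in DNM1L (152.7, 3600 bp from an exon, on a processed pseudogene), LINC01239 (146.3, 24328 bp away, on the CLIC4 pseudogene CLIC4P1), CHID1 (112.6, 1279 bp away, in a LINE element), TEX14 (80, 1098 bp away, on a U3 small nucleolar RNA gene) and RIMS2 (68, 17117 bp away, in no annotated exon or repeat). The bases around the centres of the first 4, 75 on either side, follow, on the strand of the host gene, in lower case with runs of 5 or more T in capitals. They are shown because they have no splice site of the host nearby.
DNM1L intronic peak centre, chr12:32726297-32726447, + strand: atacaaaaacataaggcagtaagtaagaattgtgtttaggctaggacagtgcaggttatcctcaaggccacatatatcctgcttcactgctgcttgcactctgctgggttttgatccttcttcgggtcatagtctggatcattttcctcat
LINC01239 intronic peak centre, chr9:22747683-22747833, + strand: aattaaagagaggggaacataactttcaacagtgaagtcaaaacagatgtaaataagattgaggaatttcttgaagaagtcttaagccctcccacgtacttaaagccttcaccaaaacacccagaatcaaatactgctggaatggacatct
CHID1 intronic peak centre, chr11:880974-881124, − strand: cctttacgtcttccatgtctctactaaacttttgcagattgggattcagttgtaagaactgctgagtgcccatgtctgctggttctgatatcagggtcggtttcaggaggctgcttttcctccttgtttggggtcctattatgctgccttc
TEX14 intronic peak centre, chr17:58631577-58631727, − strand: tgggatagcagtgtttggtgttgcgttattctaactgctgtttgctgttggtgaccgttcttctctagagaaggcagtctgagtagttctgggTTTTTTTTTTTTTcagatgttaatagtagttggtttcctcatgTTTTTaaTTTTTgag
A run of 5 T occurred only in the TEX14 sequence among these 4 windows. CHID1 had a second deep peak on the opposite strand, at 111.3, so its deep peaks also came as a pair of like score. In all, 12 internal intron peaks overlapped a small RNA gene and 0 overlapped a miRNA gene. The highest of these was a peak of TMX1 at 352.1 that overlapped SNORA70.

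U-rich sequence was common in the peaks and nearly as common around them. A run of 5 T on the transcript strand, TTTTT, was found in 76.2% (75.2 to 77.2) of the 7288 placed peaks, in 73.5% at the donor end and 79.6% at the acceptor end. Windows of the same length tiled over the same introns held it in 70.3% (70.0 to 70.5). Windows that start at the middle of an exon give a closer comparison. This matches, to within 25 bp, the placement of 59.3% of the peaks near an exon behind them, and not that of the others. On the acceptor side 79.9% (78.4 to 81.3) of windows at exons with a peak there held TTTTT, and 78.0% (77.4 to 78.5) of those at host gene exons without one. On the donor side the shares were 72.8% (71.3 to 74.3) and 71.4% (70.8 to 72.0). The TTTTT intervals of exons with and without a peak overlapped on both sides. The pentamer ATTTA, at the core of AU-rich elements, was found in 58.5% of the peaks and 54.4% of the tiled windows. In the windows from the middle of an exon, ATTTA was found on the acceptor side in 61.0% (59.3 to 62.8) with a peak and 58.5% (57.9 to 59.2) without, intervals that did not overlap. On the donor side it was found in 58.7% (57.0 to 60.3) and 56.9% (56.2 to 57.5), intervals that did. The longer TATTTAT, which contains it, was found in 11.5% and 10.5%. Peaks with and without TTTTT had median scores of 27.9 and 28.6. First-intron peaks held TTTTT in 52.2%, exon peaks in 48.0% and 3′-UTR peaks in 78.5%. Mean GC content was 38.0% with an SD of 8.03 across the placed peaks and 39.4% over the tiled windows. A match describes the letters in a window and is not a binding site.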

How the data were processed

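The RIP-seq libraries came from MDA-MB-231 lysates, 2 pulled down with anti-HuR and 2 with mouse IgG. Reads were aligned to hg38 with STAR and peaks called with HOMER, and the authors kept the peaks tied to a change in transcript abundance. Versions, settings, the criterion of that choice, strand handling, the use of reads with several alignments and any pooling of replicates are not given in the sources used here. For annotation the methods name ANNOVAR, but the list's own header holds a HOMER command. How tags were shifted before peaks were placed moves their centres and thus the intron annotation.

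The deposited peak score is HOMER's own value with its scale not stated, the focus ratio is a fraction between 0 and 1 per the file headers, and the deposited distance to the nearest transcription start site was not used. The list has 1 value per peak, so no test between groups was made, in place of the comparison of HuR with IgG.

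Host genes came from the RefSeq transcript in the annotation. Exons and introns were those of the GENCODE 44 canonical transcript, and coordinates are 1-based. An exon behind a peak lies on the side opposite to the direction of the peak's strand. Shares have Wilson 95% intervals and medians have 95% order-statistic intervals. Named genes were the 10 hosts with the highest peak, the 10 with most peaks, the study's 14 genes, the 5 best deep peaks and 5 best exon pairs (1 per gene) and the 2 best genes of each list with hosts, of which some are not reported here. EIF2S3, SEC23A and TMX1 were also singled out for other values after these were seen. The members and the gene lists were chosen with earlier results of these data known. Python 3.11.15, numpy 2.4.6, pandas 2.3.3, scipy 1.17.1, pysam 0.24.0 and matplotlib 3.10.9 were used, and the functions were tested on simulated data.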

Additional observations from a re-analysis of the deposited data

How the results depend on the processing

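Of 30 alternatives to 8 results, 10 left the value within its interval or, for a count, within 1.5 times. With peaks at or above the median score of the whole list alone, 3184 internal intron peaks in 847 host genes were left, with a median score of 70.2. Of these, 98.9% were within 1 peak length of an exon and 87.6% overlapped one, and 26.6% of their exons had peaks on both sides. With 1 peak per host gene, 96.4% were within that length, 98.3% had the exon behind, 88.4% overlapped it and 72.9% held the run of 5 T. With peaks on repeats left out, 98.6% were within that length and 88.6% overlapped an exon. With the exons of every GENCODE transcript, these shares were 98.9% and 88.7%. A limit at the distance from a peak's centre to its edge gave 86.7%, which is the same condition as overlapping an exon. An overlap of more than that distance was met by 0.165%. A peak centred in an intron can reach it only by covering bases of both neighbouring exons. In place of the run of 5 T, the pentamer ATTTA was found in 58.5%, the heptamer TATTTAT in 11.5% and a run of 7 T in 25.9%. Counting only exons with internal introns on both sides, an alternative chosen after seeing the data, gave 22.4% with peaks on both sides. No paired analysis was possible because values of single samples were not used here. For the same reason no library could be left out, and depth per library is unknown.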

Other observations

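The Gene Name column of the list gives the gene with the nearest transcription start site, and it differed from the host gene for 3015 of the 7352 matched internal intron peaks. The best peaks of CAPZA1, AXL and ITGB1 are listed there under MOV10, HNRNPUL1 and SNORA86, and 2 of the 5 peaks of ELAVL1 under TIMM44. Counted by that column, the internal intron peaks would fall on 2419 genes in place of 2015.

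In another transcript of the host gene, 791 of the placed peaks had their centre in an exon. In the canonical transcript 31 lay in the first intron and 18 in the last. Repeats were annotated at 909 peaks, of which 311 were Alu and 255 LINE elements, with a median score of 26.4 against 28.1 for the others. Among the 467 peaks of the whole list with scores under 10, every score was a whole multiple of 0.245 to within 0.005. By chance 4.09% would be, but that share holds for a step fixed in advance, and no source states this step. On that step the lowest internal intron peak stands at 35 steps and the median one at 114. Whether 1 step is 1 tag is not stated.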
